A study of Mus musculus with 10 samples.

Results

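The comparison described here set the array of the PSI-F graft of day 1 against the array of the PSI graft of day 1, 2 of the 10 arrays of the series. The PSI graft was a plasma-based scaffold holding islets of Wistar rats, and the PSI-F graft held the same together with cultured, passaged skin fibroblasts of nu/nu mice. Both were placed under the skin, over the abdominal muscle, of 6-week-old male Swiss nu/nu mice that had been made diabetic with streptozotocin, and both were removed 1 day after transplantation. The other 8 arrays, from both kinds of graft on days 3, 7 and 10 and from subcutaneous biopsies of mice without a graft, healthy (Control) or diabetic (Diabetic), served as a yardstick. For each graft and day 2 mice were killed and the RNA of the best quality was hybridized. The sources used here do not say whether the RNA on an array was that of a single mouse. With 1 array per group there is no replicate check and no p-value, and every difference below describes these arrays. A difference is the log2 level in PSI-F minus that in PSI, so that 1 is 2-fold higher in PSI-F and -1 is 2-fold lower.

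Beside counts over all 18193 genes, 46 lists of cell types, pathways and tissues, with 959 measured members, were surveyed. The lowest list medians in PSI-F were those of mitosis and of the hair matrix, followed by red cells and platelets. The highest was that of interferon-stimulated genes. The lists cover only part of the difference. Of 57 genes at least 2-fold higher in PSI-F, 38 were in no list, and of 149 lower genes 87, with 4 lists added later counted. As background, a cell that leaves the resting state first makes the enzymes of DNA replication and then, shortly before division, the kinases, kinesins and checkpoint proteins of mitosis. The hair matrix at the base of a growing follicle is a site of rapid division, and Sonic hedgehog (Shh) and Wnt ligands are among the signals that drive follicle growth. Interferons bind receptors that activate STAT proteins and IRF9, which switch on a set of antiviral genes, and interferon-gamma adds chemokines such as Cxcl9 and Cxcl10 that attract T and NK cells. Nude mice lack a thymus and so most mature T cells but keep NK cells, and their follicles grow in cycles although the hair shafts are defective.

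The promoters of 3 genes of mitosis and of 3 interferon-stimulated genes are shown because these lists stood at the ends of the survey. Each window shown holds every motif marked for its list, which not all members do, so these windows are not a representative sample. The sequences are the 250 bases before the transcription start in RefSeq (build GRCm38.p6), written 5′ to 3′ along the gene, with 1 window per gene at its most upstream start. In the promoters of mitosis genes, capitals mark letters that match the cell cycle homology region, TTTGAA, and the CCAAT box, CCAAT. Matches were marked on either strand and wherever they lay in the window. TTCAAA and ATTGG are the same motifs read from the other strand. The window of Kif11, the kinesin that separates the spindle poles, is chr19:37376132-37376381 (+ strand). That of Ccnb2, a cyclin of mitosis, is chr9:70421555-70421804 (- strand). That of Mki67, the gene of the proliferation antigen Ki-67, is chr7:135716380-135716629 (- strand).
Kif11: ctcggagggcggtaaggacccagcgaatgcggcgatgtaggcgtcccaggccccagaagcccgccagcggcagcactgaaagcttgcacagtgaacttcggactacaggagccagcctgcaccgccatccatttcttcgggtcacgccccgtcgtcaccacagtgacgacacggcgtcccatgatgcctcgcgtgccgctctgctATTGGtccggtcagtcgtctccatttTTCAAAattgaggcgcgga
Ccnb2: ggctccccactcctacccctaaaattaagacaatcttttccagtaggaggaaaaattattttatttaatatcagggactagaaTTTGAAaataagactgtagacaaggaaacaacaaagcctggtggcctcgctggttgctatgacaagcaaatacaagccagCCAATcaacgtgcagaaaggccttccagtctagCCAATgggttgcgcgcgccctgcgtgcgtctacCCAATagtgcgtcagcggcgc
Mki67: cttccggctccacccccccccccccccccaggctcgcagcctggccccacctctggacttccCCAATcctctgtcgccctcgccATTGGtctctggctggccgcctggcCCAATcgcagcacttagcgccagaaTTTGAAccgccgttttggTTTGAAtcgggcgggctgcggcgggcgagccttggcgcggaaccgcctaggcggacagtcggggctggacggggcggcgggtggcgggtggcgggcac
Of 35 measured mitosis genes, 29 had a promoter in the RefSeq table, and 23 of these windows (79.3%) held CCAAT and 9 (31.0%) TTTGAA. Among all 27025 promoters of the same length the shares were 34.5% and 16.3%.

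In the promoters of the interferon-stimulated genes, capitals mark GAAA, any 2 bases and again GAAA, the core of the interferon-stimulated response element, on either strand. The window of Cxcl10, a chemokine for T and NK cells, is chr5:92348890-92349139 (- strand). That of Igtp, a GTPase induced by interferon-gamma, is chr11:58199306-58199555 (+ strand). That of Ifit3, an antiviral protein induced by type I interferon, is chr19:34583279-34583528 (+ strand).
Cxcl10: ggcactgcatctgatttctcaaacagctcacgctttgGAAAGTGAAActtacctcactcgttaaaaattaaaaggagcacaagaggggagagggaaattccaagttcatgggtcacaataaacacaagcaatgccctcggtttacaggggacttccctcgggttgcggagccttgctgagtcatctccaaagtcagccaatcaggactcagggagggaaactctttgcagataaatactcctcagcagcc
Igtp: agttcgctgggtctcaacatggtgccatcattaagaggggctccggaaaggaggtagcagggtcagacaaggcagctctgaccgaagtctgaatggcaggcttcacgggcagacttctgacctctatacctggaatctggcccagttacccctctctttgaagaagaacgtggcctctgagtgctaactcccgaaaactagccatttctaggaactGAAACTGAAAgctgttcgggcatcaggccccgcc
Ifit3: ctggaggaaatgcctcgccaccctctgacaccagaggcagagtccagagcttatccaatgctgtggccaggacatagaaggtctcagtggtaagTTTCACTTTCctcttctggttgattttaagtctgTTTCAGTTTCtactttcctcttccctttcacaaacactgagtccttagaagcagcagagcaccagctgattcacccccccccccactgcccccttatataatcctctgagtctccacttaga
The core was found in 11 of the 20 interferon-stimulated genes with a promoter (55.0%) and in 823 of all 27025 promoters (3.0%). A match describes the letters of the window and does not show that a factor was bound. All 3 mitosis genes were at a lower level in PSI-F, by 1.65 for Kif11, 1.38 for Ccnb2 and 1.28 for Mki67 on the log2 scale, and the 3 interferon-stimulated genes at a higher level, by 1.69 for Cxcl10, 1.04 for Igtp and 0.91 for Ifit3.

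The day 1 grafts differed at fewer genes than those of days 3 and 7, and more genes were lower in PSI-F than higher. Of 18193 genes, 57 (0.313%) stood 2-fold or more above PSI and 149 (0.819%) 2-fold or more below. On day 3 the counts were 180 higher (0.989%) and 340 lower (1.87%), on day 7 they were 174 (0.956%) and 150 (0.824%), and on day 10 they were 70 (0.385%) and 63 (0.346%). At 4-fold, 12 genes (0.066%) were higher on day 1 and 22 (0.121%) lower. The typical difference of a gene, as the scaled median absolute deviation over all genes, was 0.27 on day 1, 0.26 on day 3, 0.31 on day 7 and 0.18 on day 10. Leaving out 57 genes of hair keratins and keratin-associated proteins, 48 genes were higher and 137 lower on day 1. Of these, 21 and 40 had a level below 4 on both arrays, where values near the array median of 2.9 in PSI and 2.92 in PSI-F are near background.

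**Figure D1:**
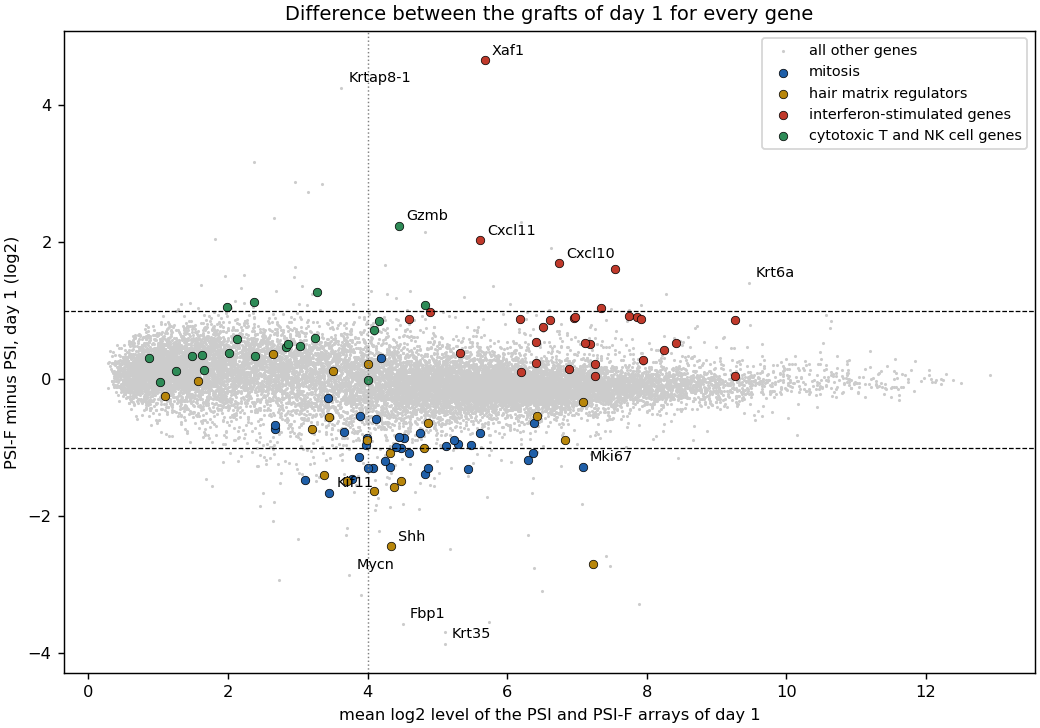
Difference between the PSI-F and the PSI array of day 1 (PSI-F minus PSI, log2, y axis) against the mean log2 level of the 2 arrays (x axis), 1 point per gene, with members of 4 lists in colour. The dashed lines mark 2-fold and the dotted line a level of 4; the mitosis genes lie below 0 except Foxm1, and the interferon-stimulated genes above 0.

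Most of the 2-fold differences of day 1 were not seen again on another day. Of the 48 higher genes, 6 were also 2-fold higher on day 3, 12 on day 7 and 2 on day 10, while 8, 7 and 7 were 2-fold lower on those days. Of the 137 lower genes, 41 were also 2-fold lower on day 3, 11 on day 7 and 2 on day 10, and 9, 12 and 5 were 2-fold higher. Of all 18193 genes, 0.989%, 0.956% and 0.385% were 2-fold higher on days 3, 7 and 10, and 1.87%, 0.824% and 0.346% lower. In both sets the counts lay above these shares, in the same direction and in the opposite one. No gene of either set kept a 2-fold difference of the same direction on all 4 days. For 93 of the 137 lower genes and 30 of the 48 higher ones, day 1 had the largest difference of the 4 days. Both sets were picked for a large difference on day 1, which favours that day. For 89 of the 137, the PSI-F array of day 1 was the lowest of all 10 arrays, against 9.73% of all genes, but these genes were picked for a low value on that array. Over 10279 genes with a level of at least 4 and outside the hair keratins, the differences of day 1 correlated with those of day 7 at r = 0.24, of day 3 at 0.14 and of day 10 at -0.07. These are correlations across genes, which are not independent replicates, and the pairs of arrays share no array.

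Differences also moved with the level of the gene, which bears on every list of weakly expressed genes. Of 4229 genes whose higher level on the 2 arrays was below 2, 68.8% were above 0, with a median difference of 0.12. Of 4063 genes with a level from 6 to below 8, only 27.6% were above 0, with a median of -0.11. Between levels of 4 and 6 the median was -0.09. List medians of that size are therefore what genes of the same level showed in general.

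Genes of mitosis were the list with the lowest median on day 1. Of the 35 measured members, 16 were lower in PSI-F by 2-fold or more and none was higher by as much, against 0.819% lower among all genes, and 34 of 35 lay below 0, against 53.4% of all genes. The median difference was -0.98, or -0.65 with the probe sets of each gene averaged. It was 0.10 on day 3, -0.45 on day 7 and -0.10 on day 10, and no member was 2-fold apart on those days. The PSI-F array of day 1 had the lowest level of all 10 arrays for 28 of the 35 genes, against 9.73% of all genes. On day 1 the median level of the list was 4.90 in PSI against 3.97 in PSI-F. On the other arrays it was 5.22 in Control, 4.39 in Diabetic, 4.90 in PSI against 4.99 in PSI-F on day 3, 4.86 and 4.41 on day 7, and 5.09 and 5.0 on day 10. The PSI array thus lay among the other arrays, and the PSI-F array lay below all of them.

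Kif11 had a level of 4.28 in PSI and 2.62 in PSI-F on day 1, and between 3.12 and 4.84 on the other arrays. Its other probe sets differed by -0.95 and -0.14. Kif20a, a kinesin of cytokinesis, had 3.85 and 2.37, and Bub1, a kinase of the spindle checkpoint, 4.51 and 3.06. The level of Ccnb2 was 5.52 in PSI and 4.14 in PSI-F, while the other arrays lay between 5.06 and 5.92. Mki67, the brightest of these genes, had 7.72 and 6.44, with the other arrays between 6.78 and 7.94. For each of these genes the PSI-F array of day 1 was the lowest of the 10, although a second probe set of Bub1, near background at 0.79 and 1.19, differed by 0.40. Cdk1, the kinase that starts mitosis, had 5.78 and 4.83. Foxm1, a transcription factor of mitosis genes, was the only member above 0, with 4.03 in PSI and 4.35 in PSI-F.

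The genes of DNA replication differed in the same direction by less. Of 30 members, 29 lay below 0 and 2 were at least 2-fold lower, against 53.4% and 0.819% of all genes. The median was -0.55, against 0.14 on day 3, -0.33 on day 7 and 0.08 on day 10. The level of Uhrf1, which carries DNA methylation through replication, was 6.11 in PSI against 5.02 in PSI-F. Rrm2, a subunit of the enzyme that makes deoxynucleotides, had 6.96 and 5.90, and its other 2 probe sets differed by -1.22 and -1.23. The sliding clamp Pcna differed by -0.29 and the helicase subunit Mcm2 by -0.49. The PSI-F array of day 1 was the lowest of the 10 for 5 of the 30 genes. A list of kinetochore and centromere genes, added after the data had been seen, had a median of -0.59 and shares 2 genes with the mitosis list. Of its 28 members 26 lay below 0 and 4 were at least 2-fold lower, against the same shares of all genes. Among them Cdca5, the cohesin regulator sororin, differed by -1.54, Spc25 by -1.52 and Cenpa, the histone of centromeres, by -1.36. The other probe sets, all dimmer, differed by -1.09 for Cdca5, -0.33 for Spc25, and -0.27 and -0.07 for Cenpa.

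**Figure D2:**
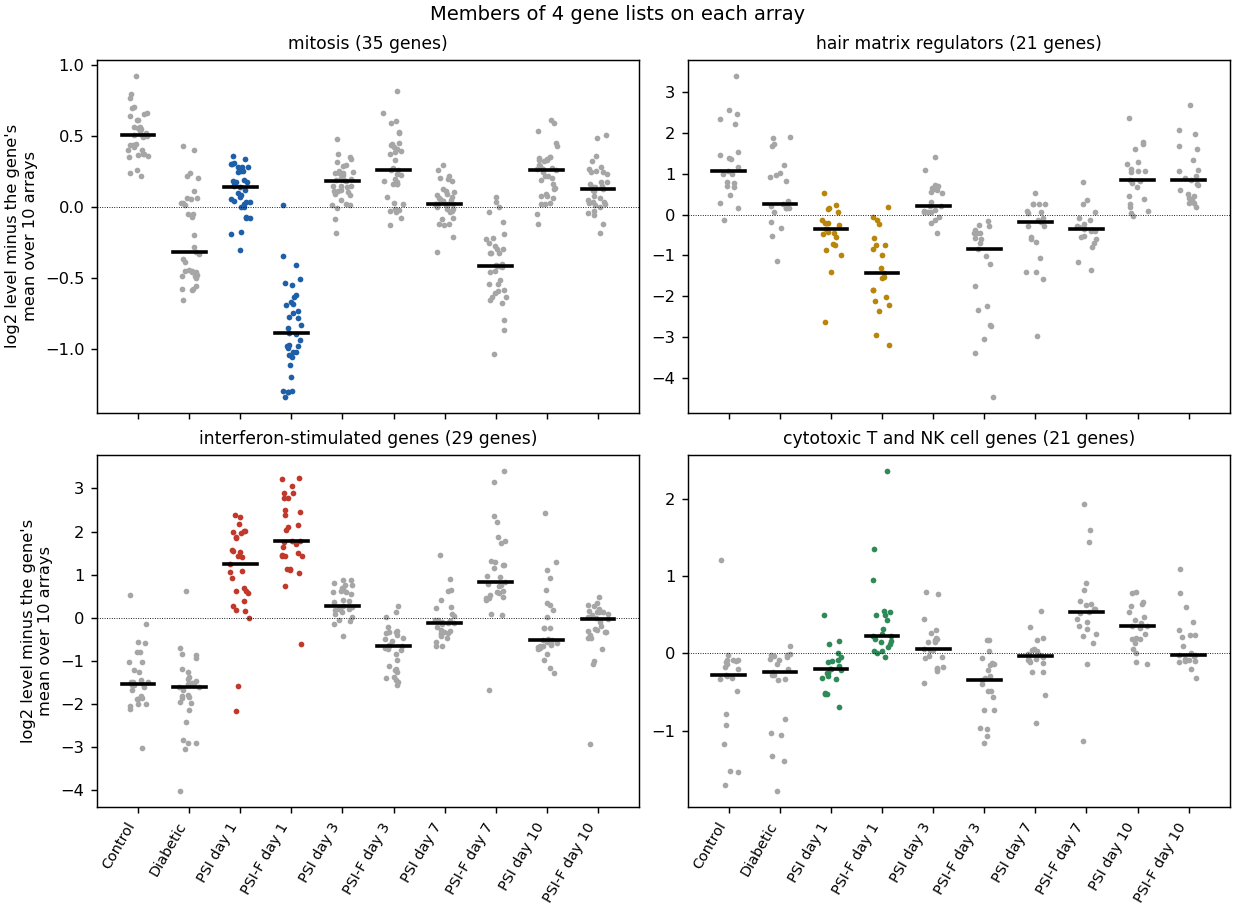
Log2 level of each member of 4 gene lists on each of the 10 arrays, minus the gene's own mean over the 10 arrays (y axis), with 1 point per gene and a bar at the median. The day 1 arrays are in colour; the mitosis genes have a median of -0.88 on the PSI-F array of day 1 and 0.14 on the PSI array of that day.

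Genes that regulate the hair matrix were lower in PSI-F as well. Of 21 members, 8 were at least 2-fold lower, against 0.819% of all genes, and none higher. The median was -0.89, and 18 lay below 0, against 53.4% of all genes. The median was -1.17 on day 3, 0.06 on day 7 and 0.10 on day 10. The median level was 6.86 in Control, 5.87 in Diabetic. It was 4.86 in PSI against 3.57 in PSI-F on day 1, and 5.64 against 3.50 on day 3. On day 10 both grafts were at 6.38. Both day 1 grafts thus lay below the biopsies, with PSI-F the lower of the pair. The part of the hair matrix in the difference of the mitosis genes was not tested. In bulk tissue, fewer cells of a type and less RNA per cell cannot be told apart, and how much follicle or skin each piece of graft contained was not measured on the arrays.

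Shh, the hedgehog ligand of the hair matrix, had a level of 5.56 in PSI and 3.12 in PSI-F on day 1, and 4.10 to 6.38 on the other arrays. Msx2 and Dlx3, homeobox factors of hair differentiation, had 4.90 and 3.28, and 5.16 and 3.59. The second probe sets of Shh, Msx2 and Dlx3, all dimmer, differed by -0.31, 0.03 and -0.02. Lhx2, a factor of follicle stem cells, had 5.22 and 3.74, and Hoxc13, which drives hair keratin genes, 4.86 and 3.78. Of these, Shh and Lhx2 had their lowest level of the 10 arrays on the PSI-F array of day 1, whereas Msx2, Dlx3 and Hoxc13 were lower still in PSI-F of day 3. Prr9 had 8.57 and 5.88 and belongs to the list as a structural protein of hair cells, not as a regulator.

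The hedgehog pathway was followed with a list added after these values had been seen. Of 17 members, 4 were at least 2-fold lower and 13 lay below 0, against 0.819% and 53.4% of all genes. The median was -0.20, or -0.54 among the 12 with a level of at least 4. Ptch1, the receptor of Shh and itself a target of the pathway, had 7.18 in PSI and 5.52 in PSI-F, against 6.16 to 7.58 on the other arrays. Its other probe sets, near background, differed by -0.98 and 0.07. Gli1, a transcription factor switched on by the pathway, had 4.60 and 3.06, against 3.48 to 5.32. Mycn, a transcription factor and pathway target, had 5.16 and 2.31 on its brightest probe set, but its other probe sets differed by 0.24 and -0.09. The cell cycle target Ccnd1 had 7.47 and 6.53, and Gli2, a transcription factor of the pathway, 5.54 and 5.11. The 2-fold lower genes Shh, Ptch1, Gli1 and Mycn were the 4 largest differences of a list made with values in view, so their low values are a description, and 4 of the 17 members lay above 0. On day 7 Ptch1 differed by -1.05 and Gli1 by -0.76, and on day 10 by 0.07 and 0.39.

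Of 30 Wnt ligands, receptors and antagonists, 2 were at least 2-fold lower, against 0.819% of all genes, and the median was -0.25. In all, 21 members lay below 0, against 53.4% of all genes. The share above 0 was 34.9% for genes with a level from 4 to below 6, but 62.7% from 2 to below 4. Among the 19 members with a level of at least 4 the median was -0.43, against -0.10 over all genes of that level. Wif1, a secreted Wnt inhibitor, had 5.06 in PSI and 3.16 in PSI-F and differed by about as much on day 3 (-1.88) and day 7 (-2.03), but by -0.31 on day 10. Wnt5a, a Wnt ligand that is also counted in the hair matrix list, had 4.44 and 2.96, and 2 of its 3 other probe sets were also 2-fold lower, at -1.19 and -1.24. Lef1, a transcription factor of the Wnt pathway, had 4.43 and 3.54.

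Among the hair keratins and keratin-associated proteins, the members did not move as one. Of 32 members, 15 were at least 2-fold lower and 4 at least 2-fold higher, against 0.819% and 0.313% of all genes. The median was -0.11 over all members and -1.92 over the 20 with a level of at least 4. Those lower included the 7 measured keratins of the inner root sheath, the layers that guide the growing shaft, and part of the shaft keratins. Krt25 had 9.53 in PSI and 6.24 in PSI-F, Krt28 7.51 and 3.97, Tchh (trichohyalin) 8.83 and 6.10, and Krt35, a shaft keratin, 7.03 and 3.18. S100a3, a calcium-binding protein of the hair cuticle, had 6.95 and 3.26, and Padi3, which modifies trichohyalin, 6.42 and 3.94. Those higher were keratin-associated proteins of the hair shaft, which appear late in its differentiation. Krtap8-1 had 1.5 in PSI and 5.75 in PSI-F, against 10.88 in Control and 9.76 in Diabetic, and Krtap15 had 1.92 and 4.77, against 11.47 and 10.64.

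Several of the lowest genes outside these families were also lower in PSI-F of day 3, as were 31 of the 32 hair keratin list members by 2-fold or more. Whether the genes named next share in the difference of the hair genes was not tested. Fbp1, an enzyme of gluconeogenesis, had 6.28 in PSI and 2.72 in PSI-F, and differed by -4.16 on day 3. Vsig8 had 5.47 and 2.33, Calhm4 4.17 and 1.84, and Crym, a protein that binds thyroid hormone, 4.83 and 2.56, with differences of -6.02, -5.48 and -4.77 on day 3. The melanocyte list had a median of -0.04, with 1 of 11 members at least 2-fold lower and 4 above 0, up to 0.88 for Sox10, a transcription factor of melanocytes and glia. Its defining genes were below 0, with Dct, an enzyme of melanin synthesis, at 4.92 and 3.89, Pmel, of the melanosome matrix, at 4.06 and 3.42, and Tyr, the tyrosinase, near background at 2.21 and 1.67. All 3 had their lowest level of the 10 arrays in PSI-F of day 1.

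**Figure D3:**
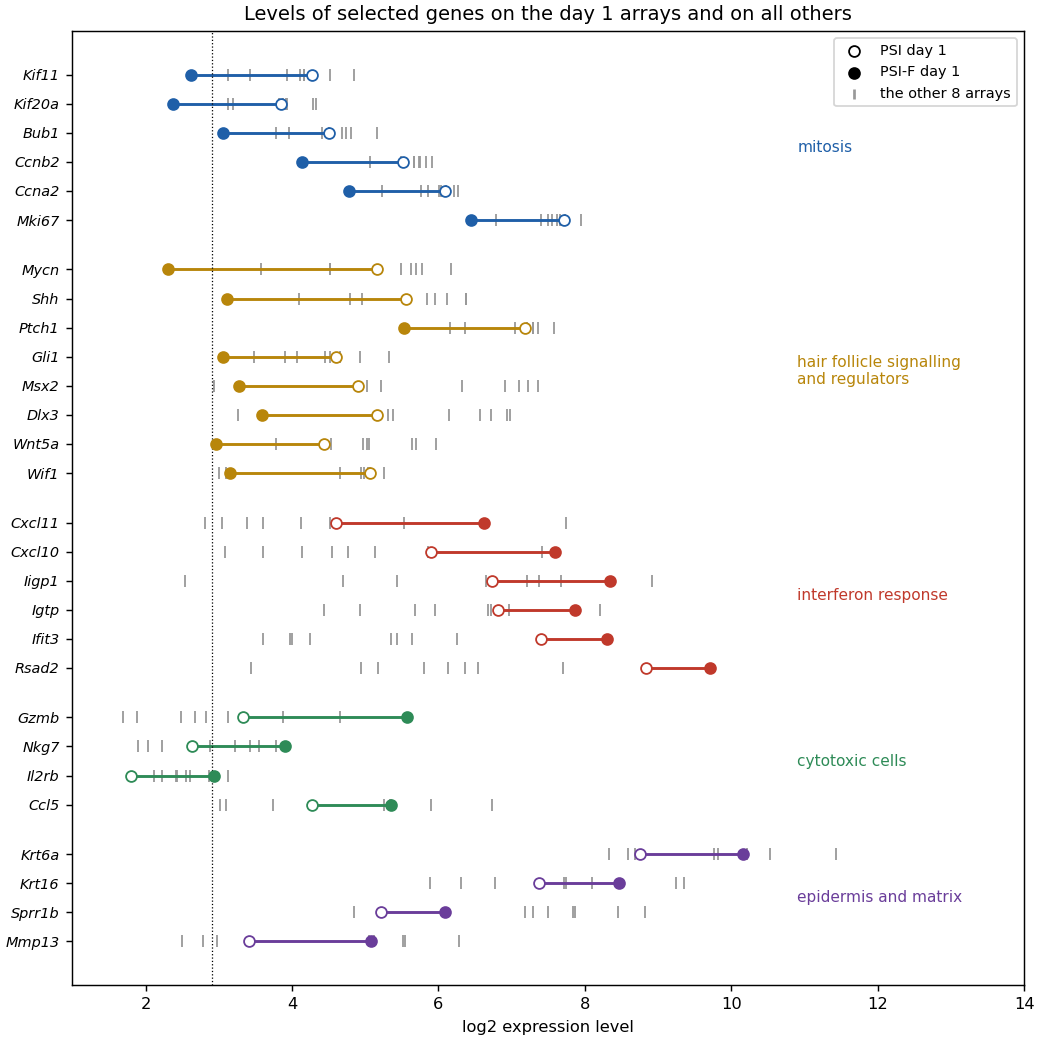
Log2 expression level (x axis) of 28 genes on the PSI array of day 1 (open circles), the PSI-F array of day 1 (filled circles) and the other 8 arrays (grey ticks), with a dotted line near the median of the arrays. For Kif11, Ccnb2, Mki67, Shh, Ptch1 and Gli1 the filled circle lies left of every other mark, and for Ifit3, Rsad2 and Gzmb it lies right of every other mark.

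Among the 46 lists, interferon-stimulated genes had the highest median on day 1. All 29 members lay above 0, against 46.5% of all genes, 5 were at least 2-fold higher against 0.313% of all genes, and the median was 0.86. The PSI-F array of day 1 was the highest of the 10 arrays for 22 of the 29 genes, against 9.21% of all genes. The median level was 3.89 in Control and 3.73 in Diabetic. In PSI against PSI-F it was 6.74 against 7.41 on day 1, 5.85 and 4.95 on day 3, 5.37 and 6.28 on day 7, and 5.27 and 5.65 on day 10. Both grafts of day 1 were thus well above the biopsies, and PSI-F above PSI. The direction was not kept: the median difference was -1.13 on day 3, 1.12 on day 7 and 0.37 on day 10.

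Rsad2 (viperin), an antiviral enzyme, had a level of 8.84 in PSI and 9.70 in PSI-F on day 1, and 3.44 to 7.70 on the other arrays. Ifit3 had 7.40 and 8.31, with the other arrays at 3.60 to 6.25. Mx1, a GTPase against viruses, had 6.19 and 7.05, Ifit1 6.52 and 7.41, and Usp18, a brake on interferon signalling, 6.52 and 7.43. For these type I interferon targets the 2 day 1 grafts held the 2 highest levels of the 10 arrays. Oas2 differed by 0.22 and Irf7, a transcription factor of the response, by 0.43.

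After Xaf1, which is described further below, the 4 largest differences of the list were those of chemokines and GTPases that interferon-gamma induces, Cxcl11, Cxcl10, Iigp1 and Igtp. The GTPases Gbp2 and Irgm1 differed by 0.88 and 0.52, no more than Ifit3. Cxcl10 had 5.90 in PSI and 7.59 in PSI-F on day 1, and 7.41 in PSI-F of day 7. Cxcl11, a chemokine for the same receptor, had 4.60 and 6.63 and reached 7.75 in PSI-F of day 7, while its second probe set was near background on both day 1 arrays. Cxcl9 had 4.40 and 5.38, below all later grafts except PSI-F of day 3 at 4.48, which lay between them. Iigp1, a GTPase directed at intracellular parasites, had 6.74 and 8.35, and its other probe set differed by 1.24. Igtp had 6.82 and 7.86, and Ifi47 7.24 and 8.26. In a list of 10 interferon-gamma induced GTPases that was added after the data had been seen, 5 of them shared with the list above, 3 were at least 2-fold higher, all lay above 0 and the median was 0.91, against -0.99 on day 3 and 1.29 on day 7. The interferon genes themselves could not be compared, as Ifng, the gene of interferon-gamma, stood at 0.72 and 1.03, below the array median, and only 4 of 10 interferons and receptors, a list also added later, reached a level of 4. The median of that list was 0.14.

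Genes of cytotoxic T and NK cells lay above 0 in 19 of 21 members, with a median of 0.49, and 5 were at least 2-fold higher, against 0.313% of all genes. Most members had a level below 4, where 68.8% of genes below 2 and 62.7% of those from 2 to below 4 lay above 0. Only 5 members reached a level of 4, and their median was 0.85. Gzmb, granzyme B, the protease by which cytotoxic cells kill, had 3.33 in PSI and 5.57 in PSI-F on day 1, the highest of the 10 arrays, and 1.69 to 4.65 on the others. Ccl5, a chemokine of activated T and NK cells, had 4.28 and 5.36, within the 3.02 to 6.74 of the other arrays. Nkg7, of cytotoxic granules, had 2.64 and 3.91, and Il2rb, the shared beta chain of the interleukin-2 receptor, also used by interleukin-15, 1.81 and 2.94, close to background. Gzma, granzyme A, had 3.73 and 4.45. The T cell receptor component Cd3e had 2.95 and 3.55, Cd3g 1.31 and 1.65, and the NK cell receptor Ncr1 1.83 and 2.42, all below a level of 4. The median of the list was -0.34 on day 3, 0.50 on day 7 and -0.09 on day 10, where that of the interferon-stimulated genes was 0.37.

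**Figure D4:**
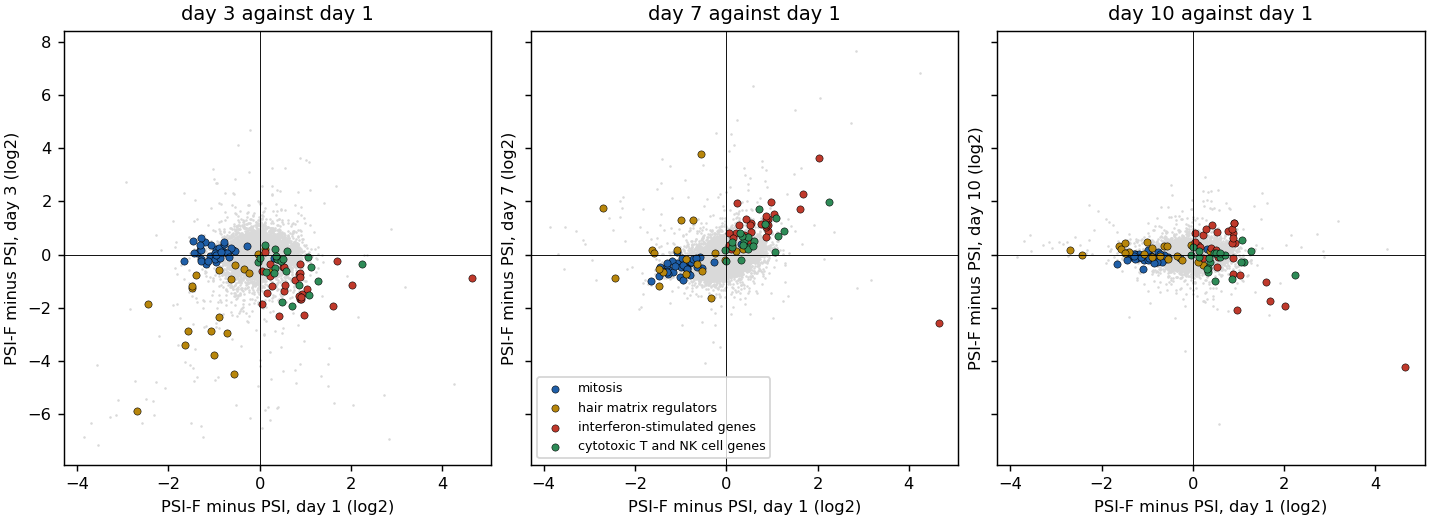
PSI-F minus PSI difference (log2) on day 3, day 7 and day 10 (y axis, left to right) against that of day 1 (x axis), 1 point per gene, with members of 4 lists in colour. The interferon-stimulated genes lie right of 0 in every panel, mostly below 0 on day 3 (median -1.13) and mostly above it on day 7 (median 1.12), and the mitosis genes except Foxm1 lie left of 0, with medians of 0.10, -0.45 and -0.10 on the later days.

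Other immune cells differed little between the day 1 grafts. Among genes of dendritic cells and MHC class II, 14 of 15 lay above 0, against 46.5% of all genes. The median was 0.36, or 0.42 over the 8 with a level of at least 4, and none was 2-fold apart. H2-Ab1, an MHC class II chain, differed by 0.70, and Ciita, the activator of these genes, by 0.61. Monocyte and macrophage genes had a median of 0.24 with none of 22 at 2-fold, and the macrophage receptor Adgre1 had 6.87 in PSI and 7.48 in PSI-F. Neutrophil genes had a median of -0.04 with none of 17 at 2-fold, against 1.29 on day 3, and S100a8 and S100a9, abundant proteins of neutrophils, had 10.78 and 10.59, and 10.31 and 9.75. The B cell list had a median of 0.16 with none of 9 at 2-fold, and its defining genes Ms4a1 and Cd79a were near background. Alternative macrophage activation (median 0.22, 13 genes), Toll-like receptors and DNA sensing (0.16, 23 genes), and complement and acute phase (0.16, 19 genes) held no 2-fold difference either.

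Few chemokine genes were 2-fold apart. Of 21 CXC chemokines and receptors, 2 were at least 2-fold higher, the interferon targets Cxcl10 and Cxcl11, and 2 were at least 2-fold lower. The shares over all genes were 0.313% and 0.819%. The lower ones were Ppbp, a chemokine of platelets, at 5.51 in PSI and 4.10 in PSI-F, and Cxcl3, a neutrophil chemokine, at 5.74 and 4.71. Cxcl2, another neutrophil chemokine, had 8.2 and 7.20, while Cxcl1 and Cxcl5, of the same receptor, differed by 0.53 and 0.44. Of 23 CC chemokines and receptors only Ccl5 was 2-fold apart, and Ccl2, which attracts monocytes, had 7.96 and 8.21. Of 35 interleukins, TNF family members and receptors, 23 lay above 0, against 46.5% of all genes. The median was 0.15, with 2 at least 2-fold lower, against 0.819% of all genes, and none higher. The highest were Il13ra2, a receptor of interleukin-13, at 0.85 and Osm, a cytokine of the interleukin-6 family, at 0.71. Ptgs2 (cyclooxygenase-2, listed with them as an inflammatory gene) had 4.56 and 3.15, with its other probe set at -1.20, Il12a differed by -1.12 near background, and Il6 had 4.06 and 3.12. On day 3 several of these genes differed in the other direction, with Cxcl3 at 3.20, Cxcl2 at 2.83, Il6 at 2.71 and Ptgs2 at 2.05.

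Genes of red cells and platelets had a median of -0.70, or -0.32 with averaged probe sets. Of 9 members 2 were at least 2-fold lower and 7 lay below 0, against 0.819% and 53.4% of all genes. The lower ones were Alas2, the haem synthesis enzyme of red cells, at 5.04 in PSI and 3.20 in PSI-F, and Ppbp at 5.51 and 4.10. Ppbp is also counted above among the CXC chemokines. Below 2-fold, Pf4, platelet factor 4, had 8.07 and 7.37. Among the 4 members with a level of at least 4 the median was -1.05. On day 7 the list median was 1.15 in the other direction. Of 13 mast cell genes 2 were at least 2-fold lower, against 0.819% of all genes. They were Ms4a2 and Fcer1a of the IgE receptor, both near background, with Ms4a2 at 3.08 and 1.94 and Fcer1a at 2.87 and 1.80. The proteases of mast cells were split, with Cpa3 at 5.88 and 5.10, Cma1 at 5.44 and 4.79, and Tpsb2 at 3.47 and 3.99.

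Of 18 genes of the basal and wound-activated epidermis, 2 were at least 2-fold higher, Krt6a and Krt16, against 0.313% of all genes. The median was 0.07. Krt6a, a keratin induced in injured epidermis and also made in the follicle, had 8.76 in PSI and 10.16 in PSI-F on day 1, and all 3 of its probe sets were at least 2-fold higher, at 1.41, 1.46 and 1.37. Krt16, its partner, had 7.37 and 8.46. Below 2-fold, Krt17 had 9.09 and 9.88, and Sprr1b, an envelope protein of injured epidermis, 5.22 and 6.09. These values lay within those of the other arrays, as Krt6a had 11.43 in Control and 8.34 in Diabetic. The basal keratins Krt5 and Krt14 differed by 0.01 and 0.08. Of 25 genes of the cornified envelope, 21 lay below 0, with a median of -0.13 and none at 2-fold.

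The PSI-F graft carried added fibroblasts, and no gene of the fibroblast list was 2-fold apart. The median of 25 members was -0.17, with 17 below 0, 8 above and a range from -0.89 for Crabp1 to 0.48 for Tcf21. This is near what genes of such levels showed in general. Of all genes with a level from 6 to below 8, 27.6% lay above 0, with a median of -0.11. The defining markers were all slightly below 0. Pdgfra, a receptor of platelet-derived growth factor, had 7.28 in PSI and 7.19 in PSI-F, Dpt 8.10 and 7.91, Dcn (decorin) 10.03 and 9.82, Lum (lumican) 8.69 and 8.25, and Thy1 7.13 and 6.76. Of 20 collagens 15 lay below 0 and 5 above, near the share of genes at such levels, and the median was -0.27. Col1a1, the main chain of type I collagen, had 10.57 and 9.75, and Col11a1, the member at least 2-fold lower, was near background at 3.17 and 2.03. The added cells came from mice of the same kind as the recipients, so their RNA cannot be told from that of the recipient's own fibroblasts on these arrays.

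Of 22 matrix proteases and inhibitors 1 was at least 2-fold higher, against 0.313% of all genes, and none was lower by as much. Mmp13, a collagenase of wounds, had 3.42 in PSI and 5.09 in PSI-F on day 1, and 2.49 to 6.29 on the other arrays. It differed by 2.56 on day 3, 0.39 on day 7 and -2.26 on day 10. Mmp11 (stromelysin-3) had 4.59 and 5.57. Mmp3 and Mmp9 differed by 0.12 and 0.27. Matricellular and wound matrix genes (median -0.06, 14 genes) and growth factors of the TGF-beta, BMP, FGF and EGF families (median -0.00, 24 genes) held no 2-fold difference.

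Most vessel genes were at close levels in both grafts 1 day after transplantation. Of 27 endothelial genes none was 2-fold apart, and the median was 0.08, with a range from -0.44 for Sox18 to 0.84 for Mmrn1. Pecam1 (CD31) had 5.34 in PSI and 5.43 in PSI-F, Cdh5, the cadherin of endothelial junctions, 4.30 and 4.39, Tie1 4.63 and 4.49, and Emcn 4.62 and 4.50. Pericyte and smooth muscle genes had a median of -0.09 with none of 16 at 2-fold. Of 22 angiogenic ligands and receptors 1 was at least 2-fold lower, against 0.819% of all genes, and none was higher by as much. In all, 13 lay below 0 and 9 above, with a median of -0.05. Ptn, pleiotrophin, a heparin-binding growth factor, had 6.58 and 4.85, the lowest of the 10 arrays, with other probe sets at -1.13 and -0.04. Nrp2, the next lowest member, had 6.40 and 5.67, also the lowest of the 10 arrays. Its other probe sets differed by -0.51, -1.70 and -0.44. Vegfa, the main ligand of vessel growth, had 5.95 and 5.81. Hypoxia and glycolysis genes had a median of 0.07 with none of 29 at 2-fold.

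Insulin was at close levels in both grafts. Ins2 had 10.60 in PSI and 10.59 in PSI-F, against 2.27 in Control and 3.13 in Diabetic. Iapp, the amyloid peptide of beta cells, had 4.46 and 5.21, and Sst, the somatostatin of delta cells, 5.59 and 4.40, the member of 22 at least 2-fold lower. The list median was 0.20. Rat transcripts are measured only where they bind mouse probes, and Gcg (glucagon) stood near background at 1.28 and 1.53, so that the levels of different islet genes say little about the proportions of islet cells.

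Muscle genes differed little. Of 26 genes of adult skeletal muscle none was 2-fold apart, with a range from -0.24 to 0.30, and Ckm, the creatine kinase of muscle, had 12.25 and 12.33. Of 17 muscle regeneration genes 1 was 2-fold apart, Ankrd1, a stress-responsive ankyrin repeat protein, at 6.98 and 8.0. Lists of heat shock and the unfolded protein response, apoptosis regulators, metallothioneins and Nrf2 targets, the respiratory chain, cholesterol synthesis and the circadian clock held no 2-fold difference, with medians from -0.22 to 0.02. Pdk4, the kinase that spares glucose, was the 2-fold lower member of both the glucocorticoid and FoxO list and the fatty acid list, at -1.20, and Egr3 that of the immediate early genes, at -1.09. The lists of adipose and sebaceous genes (median 0.17), nerve and glia (0.24) and exocrine pancreas (0.34) had no 2-fold member, and Adipoq, adiponectin, had 6.37 and 7.07. In all, 24 of the 46 lists had no 2-fold member on day 1 and 35 had a median within 0.25 of 0.

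**Figure D5:**
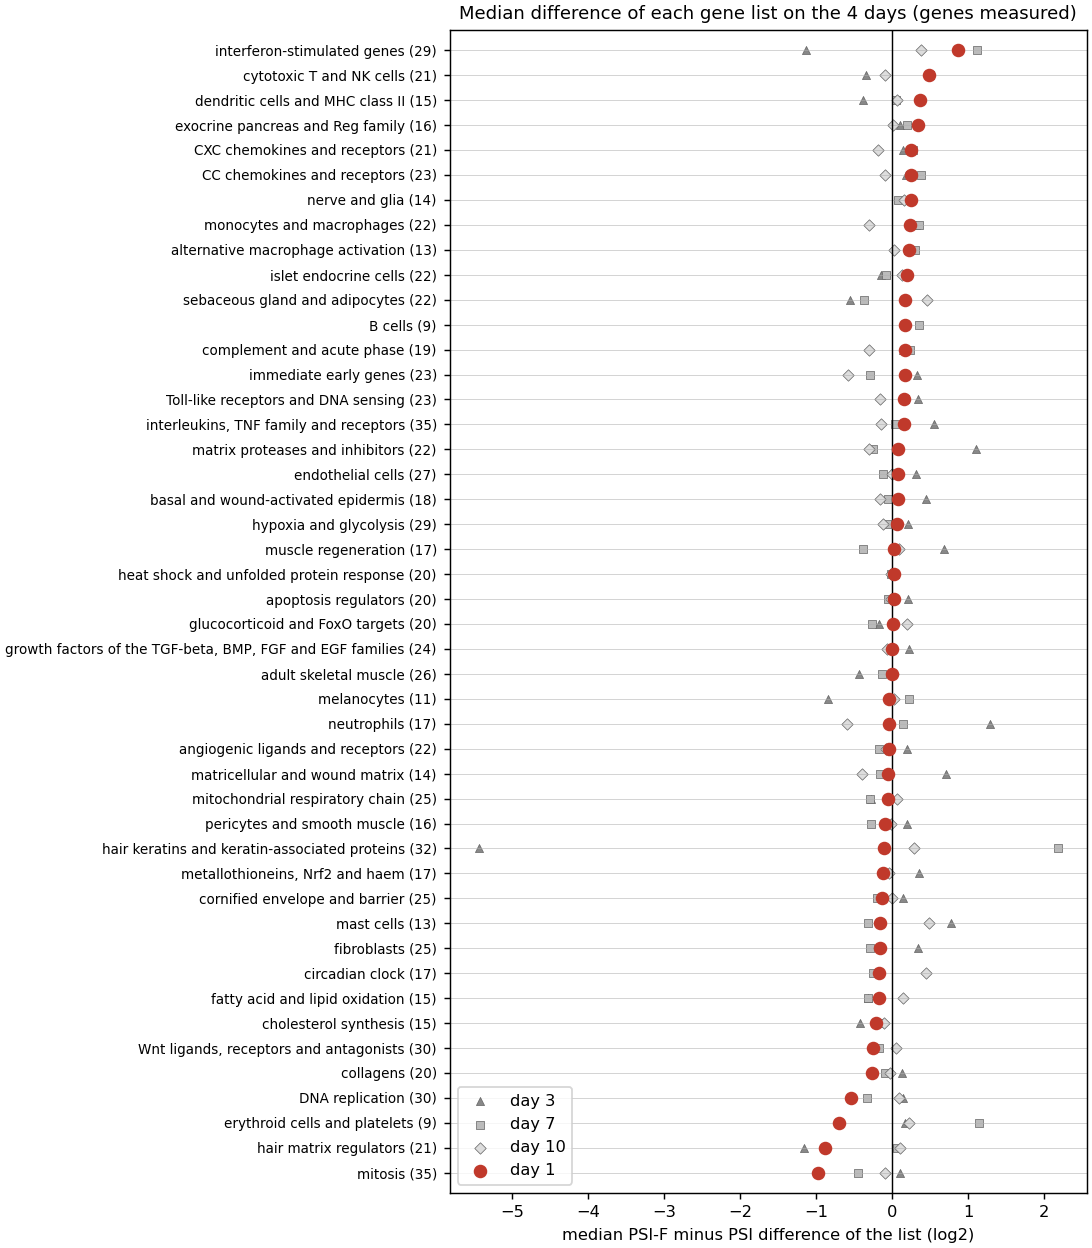
Median PSI-F minus PSI difference (log2, x axis) of each of the 46 gene lists on day 1 (red circles) and on days 3, 7 and 10 (grey triangles, squares and diamonds), ordered by day 1, with the number of measured genes in brackets. On day 1 the list medians run from -0.98 for mitosis to 0.86 for interferon-stimulated genes.

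Among the 12 highest genes outside the hair keratins were several whose levels also varied widely among the other arrays. Xaf1, an interferon-stimulated gene linked to apoptosis, had the largest difference, with 3.35 in PSI and 8.0 in PSI-F on day 1. On the other arrays it ranged from 2.59 in PSI-F of day 10 to 6.81 in PSI of day 10, and its second probe set, at 6.98 and 6.31, differed by -0.67. Trim12c had 1.52 and 4.40, while its second probe set, near background, differed by -0.33. Cnot6l, a subunit of the deadenylase complex, had 5.05 and 7.34, and its 3 other probe sets differed by -0.35 to 0.12. Rbm45, an RNA-binding protein with 1 probe set, had 3.74 and 5.89. On the lower side, Taf15, an RNA-binding protein of transcription, had 4.20 and 1.27, with the second probe set at -0.27, and Klhl41, of muscle sarcomeres, 7.43 and 5.16. For Xaf1, Trim12c, Cnot6l and Taf15 the difference thus rested on 1 probe set of the gene.
Among these 12 highest genes, the others outside the lists were BC023105, at 5.67 and 7.58, and Otud1, a deubiquitinase, at 5.11 and 6.47.

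Probe sets of a gene gave a check within the same arrays, which is no replicate. Of the 57 higher genes, 17 had further probe sets, and 21 of these 28 (75.0%) had a difference of the same sign, 5 of them 2-fold. Of the 149 lower genes, 79 had further probe sets, and 77 of 120 (64.2%) had the same sign, 20 of them 2-fold, in 17 genes. Over all genes the share of the same sign was 60.2%.

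Values of the control probe sets were close on both arrays. The 18 hybridization spikes differed by 0.08 to 0.47, all higher in PSI-F, and the 24 poly-A spikes by -0.75 to 0.25, 19 of them lower in PSI-F. None was 2-fold apart. The difference between 3′ and 5′ probe sets, a sign of RNA breakdown where it is large, was -0.01 in PSI and 0.06 in PSI-F for Gapdh, and 0.56 and 0.63 for beta-actin, within the range of the 10 arrays. The part of these values in the results was not tested.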

How the data were processed

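RNA levels were measured on Affymetrix mouse expression arrays, 1 per condition, and the groups follow the submitters' labels. The deposited values are on the log2 scale and were computed by the authors with RMA, with R 2.15.0 and affy 1.36.0 named in the submitters' processing notes. RMA applies background correction, quantile normalization and a summary per probe set, so that an overall shift between arrays is removed. Of 45101 probe sets, 64 controls were left out. Of the rest, 34945 carry 1 gene symbol, 932 several and 9160 none. Symbols were updated through RefSeq, and each of 18193 genes was represented by the probe set whose mean over the 10 arrays was highest.

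The number computed for a gene is the PSI-F minus the PSI level. A gene counted as apart at 2-fold (1 on the log2 scale), with no test, since each group has 1 array, and that number limits the precision. Lists were described by their count and median. The lists held 1045 members, of which 959 were measured. Members and lists were chosen with earlier results of these data known, and the hedgehog, interferon-gamma GTPase, interferon, and kinetochore lists were added after the values had been seen. Genes were named by a rule: the 12 highest and 12 lowest genes with a level of at least 4 outside the hair keratins, up to 4 members with the largest difference per list, defining cell type markers, and genes with a promoter shown. Further members are examples chosen with their values known.

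Alternatives were averaging a gene's probe sets, cyclic loess (limma 3.58.1 in R 4.3.3, 3 iterations), centring on the median of all genes, a level of at least 4, probe sets in place of genes, a 4-fold threshold and leaving out hair keratins. The counting was run on simulated data with planted differences above the 2-fold threshold and less spread than the day 1 differences. Such a run checks the calculation only and says nothing about the reliability of differences between these arrays. Tables were made in Python 3.11.15 (numpy 2.4.6, pandas 2.3.3) and figures with matplotlib 3.10.9.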

Additional observations from a re-analysis of the deposited data

Results flagged for a closer look

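The following differences of day 1 lay the opposite way from those of another day. With 1 array per group the difference between days was not tested. The median of the interferon-stimulated genes was 0.86 on day 1 and -1.13 on day 3. That of the erythroid and platelet genes was -0.70 on day 1 and 1.15 on day 7. Xaf1 differed by 4.65 on day 1, -2.58 on day 7 and -4.22 on day 10. Cnot6l differed by 2.29 on day 1 and -2.38 on day 7, and Rbm45 by 2.15 on day 1 and -2.34 on day 3. Taf15 differed by -2.93 on day 1 and 2.71 on day 3, and Klhl41 by -2.27 on day 1 and 2.16 on day 7.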

How the results depend on the processing

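Of 57 genes at least 2-fold higher in PSI-F on day 1, 30 had a level of at least 4 and 12 were 4-fold higher, and counted as probe sets there were 109. Of 149 lower genes, 22 were 4-fold lower. There were 95 lower genes when a gene's probe sets were averaged, and 275 lower probe sets. With averaged probe sets, 49 of the 57 higher and 90 of the 149 lower genes were again 2-fold apart, with cyclic loess 50 and 132, and with centring 57 and 143. Across 50 lists and 200 alternative medians, 193 differed from the reported median by less than the typical difference of a gene, 0.27. The other 7 were the medians of mitosis (-0.65 with averaged probe sets), red cells and platelets (-0.32 with averaged probe sets, -1.05 at a level of at least 4), cytotoxic T and NK cells (0.85 at that level), B cells (-0.37 from 1 gene), hair keratins (-1.92) and hedgehog (-0.54). Of 276 alternative values for 92 named genes, 250 differed by less than 0.27 and 25 by more, each with averaged probe sets. Many of these values could not differ by that much. Centring shifts every gene and every list median by the same 0.02, and averaging cannot change a gene with 1 probe set. With averaged probe sets alone, 66 of the 92 genes differed by less than 0.27. Isl1, a transcription factor of islets, changed sign, from -0.34 to 0.12. The level filter for the lists added later was chosen after seeing the data. The cause was not tested. No paired analysis was possible because each condition has 1 array and no replicate number, and leaving out a replicate was not run for the same reason. Levels near the array medians of 2.82 to 2.94 are close to background, which limits comparisons of dim genes.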
